A study of Mus musculus with 4 samples.

Results

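CC chemokines are small secreted proteins that steer leukocytes, and 9 of them, Ccl2, Ccl3, Ccl4, Ccl5, Ccl6, Ccl7, Ccl9, Ccl12 and Ccl22, were followed here together with the receptor Ccr2 in mouse sarcomas from hosts given vehicle or digoxin. The 10 members were taken by symbol, and all 10 were present among the 16121 genes that the tables of malignant and non-malignant cells share, of 17992 and 16349 genes in the respective tables. The tumors were hind limb allografts on the 129/SvJae background with the genotype KrasLSL-G12D/+;Trp53flox/flox, shared by both groups. Hosts received PBS as vehicle or digoxin, a cardiac glycoside that inhibits the sodium pump, at 2 mg/kg by intraperitoneal injection every 24 h, the latter prepared in DMSO and diluted in PBS, and tumors were taken after 4 doses. Each group held 2 mice (vehicle replicates 1 and 2, digoxin replicates 1 and 2), and the labels name no age and no litter or batch. Whether the vehicle PBS also held DMSO is not given in the labels, and the labels do not describe the hosts apart from the grafted tumor.

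CC chemokines bind G protein-coupled receptors on circulating and resident leukocytes. Ccl2, Ccl7 and Ccl12 are ligands of Ccr2, the receptor by which monocytes leave the bone marrow and enter inflamed tissue and tumors, where many become macrophages. Ccl3, Ccl4 and Ccl5 attract T cells, NK cells and myeloid cells, and Ccl3 and Ccl5 act in part through Ccr1; Ccl6 and Ccl9 are rodent chemokines of the Ccr1 branch made mainly by myeloid cells; and Ccl22 attracts cells with Ccr4, such as regulatory T cells.

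Of these genes, 8 lie on chromosome 11 in 2 groups (mm10, GENCODE M21 annotation). Ccl2 (82035571 to 82037453), Ccl7 (82045712 to 82047525) and Ccl12 (82101845 to 82103400) follow each other on the plus strand. Ccl5 (83525778 to 83530518), Ccl9 (83572919 to 83578636), Ccl6 (83587882 to 83593087) and Ccl3 (83647844 to 83649355) lie on the minus strand, with Ccl4 (83662584 to 83664683) next to them on the plus strand. Ccl22 lies on chromosome 8 (94745590 to 94751699, plus strand) and Ccr2 on chromosome 9 (124101950 to 124113557, plus strand). All 10 are annotated as protein-coding.

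Promoters are shown for 4 chromosome 11 members that macrophages carried far above malignant cells in the values that follow. They are the neighbours Ccl9 and Ccl6, then Ccl3, whose macrophage levels overlapped the type named Microglia, and Ccl12, the Ccr2 ligand that malignant cells barely carried. Each is the 250 bases before the RefSeq start on GRCm38.p6, 5′ to 3′ on the gene's own strand: Ccl9 at chr11:83578637-83578886 (minus), Ccl6 at chr11:83593088-83593337 (minus), Ccl3 at chr11:83649379-83649628 (minus) and Ccl12 at chr11:82101595-82101844 (plus). Capitals mark matches on either strand to TATAAA, to the AP-1 motif TGANTCA, to the PU.1 core GAGGAA or to the NF-kB consensus, and neighbouring matches can overlap. RefSeq entries were matched for 6 of the 10 members.
Ccl9: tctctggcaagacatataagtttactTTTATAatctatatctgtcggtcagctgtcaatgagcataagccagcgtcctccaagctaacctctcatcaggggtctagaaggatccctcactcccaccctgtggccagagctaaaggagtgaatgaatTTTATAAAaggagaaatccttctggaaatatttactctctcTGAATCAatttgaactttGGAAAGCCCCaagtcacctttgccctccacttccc
Ccl6: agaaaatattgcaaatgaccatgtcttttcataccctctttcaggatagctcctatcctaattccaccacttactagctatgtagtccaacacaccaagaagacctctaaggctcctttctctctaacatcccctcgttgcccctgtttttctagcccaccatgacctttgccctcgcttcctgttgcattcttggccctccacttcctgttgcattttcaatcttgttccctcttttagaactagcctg
Ccl3: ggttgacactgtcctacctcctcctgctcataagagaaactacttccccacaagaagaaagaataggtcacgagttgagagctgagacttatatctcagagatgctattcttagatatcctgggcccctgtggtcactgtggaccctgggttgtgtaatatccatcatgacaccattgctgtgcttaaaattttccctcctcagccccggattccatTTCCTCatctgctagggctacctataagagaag
Ccl12: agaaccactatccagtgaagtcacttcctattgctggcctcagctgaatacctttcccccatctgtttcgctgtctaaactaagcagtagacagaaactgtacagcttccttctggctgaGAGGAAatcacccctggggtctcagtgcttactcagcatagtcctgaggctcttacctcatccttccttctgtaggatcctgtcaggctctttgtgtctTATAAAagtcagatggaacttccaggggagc
In the Ccl9 window TATAAA was matched 3 times, of which 2 overlap each other, and the AP-1 motif and the NF-kB consensus once each. The Ccl12 window held 1 TATAAA, 26 to 31 bases before the start, and 1 GAGGAA, and the Ccl3 window held 1 GAGGAA on the opposite strand. No searched motif was matched in the Ccl6 window. Among 32851 promoter windows of the same length, 12.4% held TATAAA, 23.3% GAGGAA, 6.75% the AP-1 motif and 3.90% the NF-kB consensus. A match is a run of letters and not evidence of binding.

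The data are single-cell RNA libraries from 3′ ends that count molecules by unique molecular identifiers (UMIs). They held 3976 to 6269 malignant and 3014 to 3344 non-malignant cells per mouse, at median depths of 46799 to 57658 and 15837 to 16671 UMIs per cell. A level here is a gene's UMI count scaled to 1000000 UMIs in each cell and averaged over cells (mean CPM), and levels are ordered across cell types within a gene only, because the scale does not make different genes comparable. Cell types carry the names in the deposited annotation. The type named Epithelial held the endothelial genes Cdh5 (859 to 971 mean CPM) and Pecam1 (822 to 883). Of the epithelial genes, Epcam was at 0 to 0.358, Cdh1 at 0 to 1.24, Krt8 at 0 to 2.94 and Krt18 at 5.04 to 18.8. The type named Microglia held Siglech (2178 to 2592), a plasmacytoid dendritic cell gene. Of the microglial genes, Sall1 and Gpr34 were at 0, Tmem119 at 0 to 2.75 and P2ry12 at 14.5 to 31.9. Any 2 mice shared 14 to 25 cell barcodes, and malignant and non-malignant cells of a mouse shared 0. Where nothing in the labels says that samples came from separate cultures or litters, the p-values measure the spread between these mice.

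Ccl2, the main monocyte attractant, was carried by tumor cells, macrophages and fibroblasts alike. Values are listed throughout as vehicle 1, vehicle 2, digoxin 1, digoxin 2. In malignant cells its mean CPM was 964, 496, 577 and 642, in macrophages 1164, 946, 1075 and 1039, and in fibroblasts 2130, 784, 1509 and 2102. Over the 8 types with at least 20 cells in every mouse, the order was Fibroblast, Macrophage, Malignant, then Epithelial, Microglia, T cell, NK and Osteoclasts. Fibroblast and Macrophage levels overlapped over the 4 mice, as did Macrophage and Malignant levels, where vehicle replicate 1 was the highest malignant value. The Epithelial level of 77.9 to 348 lay below all malignant values, and the lower types overlapped their neighbours in the order.

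Ccl7, a second Ccr2 ligand beside Ccl2 on the chromosome, followed the same order of cell types. Its mean CPM in malignant cells was 506, 255, 302 and 321, against 865, 600, 706 and 607 in macrophages. Fibroblasts held 1137, 573, 1078 and 1480, which overlapped the macrophage values. Vehicle replicate 1 was the highest mouse for Ccl2 and Ccl7 in malignant cells and in macrophages. Across the 32 values of 8 types by 4 mice, the log2 levels of Ccl2 and Ccl7 correlated with a Pearson r of 0.99, and of 10994 genes compared Ccl7 was the most like Ccl2 and Ccl2 the most like Ccl7. Ier3 came next for both, with r 0.95 for Ccl2 and 0.94 for Ccl7. These values share mice, libraries and large differences in depth between types, so r is given as a description.

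Ccl12, the third Ccr2 ligand of the group, was high in macrophages and low in the other tested types. In macrophages its mean CPM was 718 and 981 with vehicle and 563 and 714 with digoxin. In malignant cells it was 26.3 and 22.3 with vehicle and 13.6 and 15.7 with digoxin, and in fibroblasts 3.76 to 9.09. Macrophage values lay above every other tested type, whose next member in the order was Microglia at 7.49 to 162, while the few neutrophils, not tested, held 65.8 to 833. The genes with the most similar pattern were Cd163 (r 0.92), a scavenger receptor of macrophages, Gm5150 (r 0.90) and Tlr8 (r 0.88).

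The 3 Ccr2 ligands varied together across single macrophages. The Spearman rho of Ccl2 with Ccl7 across macrophages was 0.68 to 0.72 in the 4 mice, of Ccl7 with Ccl12 0.57 to 0.62 and of Ccl2 with Ccl12 0.45 to 0.58. The macrophages pool sub-clusters whose levels differ, and within M2 these values were 0.69 to 0.74, 0.34 to 0.42 and 0.38 to 0.44, and within M1 0.53 to 0.62, 0.49 to 0.62 and 0.35 to 0.52. Across malignant cells rho of Ccl2 with Ccl7 was 0.55 to 0.62. Cells of a mouse share a library and differ in depth, and no p is given. Ccl2 UMIs were found in 84.3% to 91.0% of macrophages and in 77.6% to 90.0% of malignant cells as deposited. After thinning each cell to 4000 UMIs, the expected shares were 67.9% to 73.8% and 39.7% to 55.3%. For Ccl7 they were 51.8% to 58.0% of macrophages and 32.4% to 48.9% of malignant cells. In T cells, which are not a known main source of Ccl2, the thinned share was 19.8% to 35.7%, and C1qa, a complement gene of macrophages, reached 7.75% to 11.1% of malignant cells on the same scale.

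Ccr2 itself was a leukocyte gene in these tumors. Its mean CPM was 475 and 401 with vehicle and 420 and 257 with digoxin in macrophages, 394, 305, 391 and 231 in NK cells, and 192, 356, 231 and 205 in T cells. The type named Microglia held 423, 506, 438 and 318, and these 4 types overlapped their neighbours in the order. Malignant cells held 3.72 to 7.0, fibroblasts 2.22 to 15.7 and cells named Osteoclasts 2.62 to 41.5, all below the 4 leukocyte types. Digoxin replicate 2 was the lowest mouse in macrophages, NK cells and the type named Microglia. Among the genes most like Ccr2 over types were Ikzf1, a lymphoid and myeloid transcription factor, with r 0.97, and Runx3 with r 0.96.

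**Figure D1:**
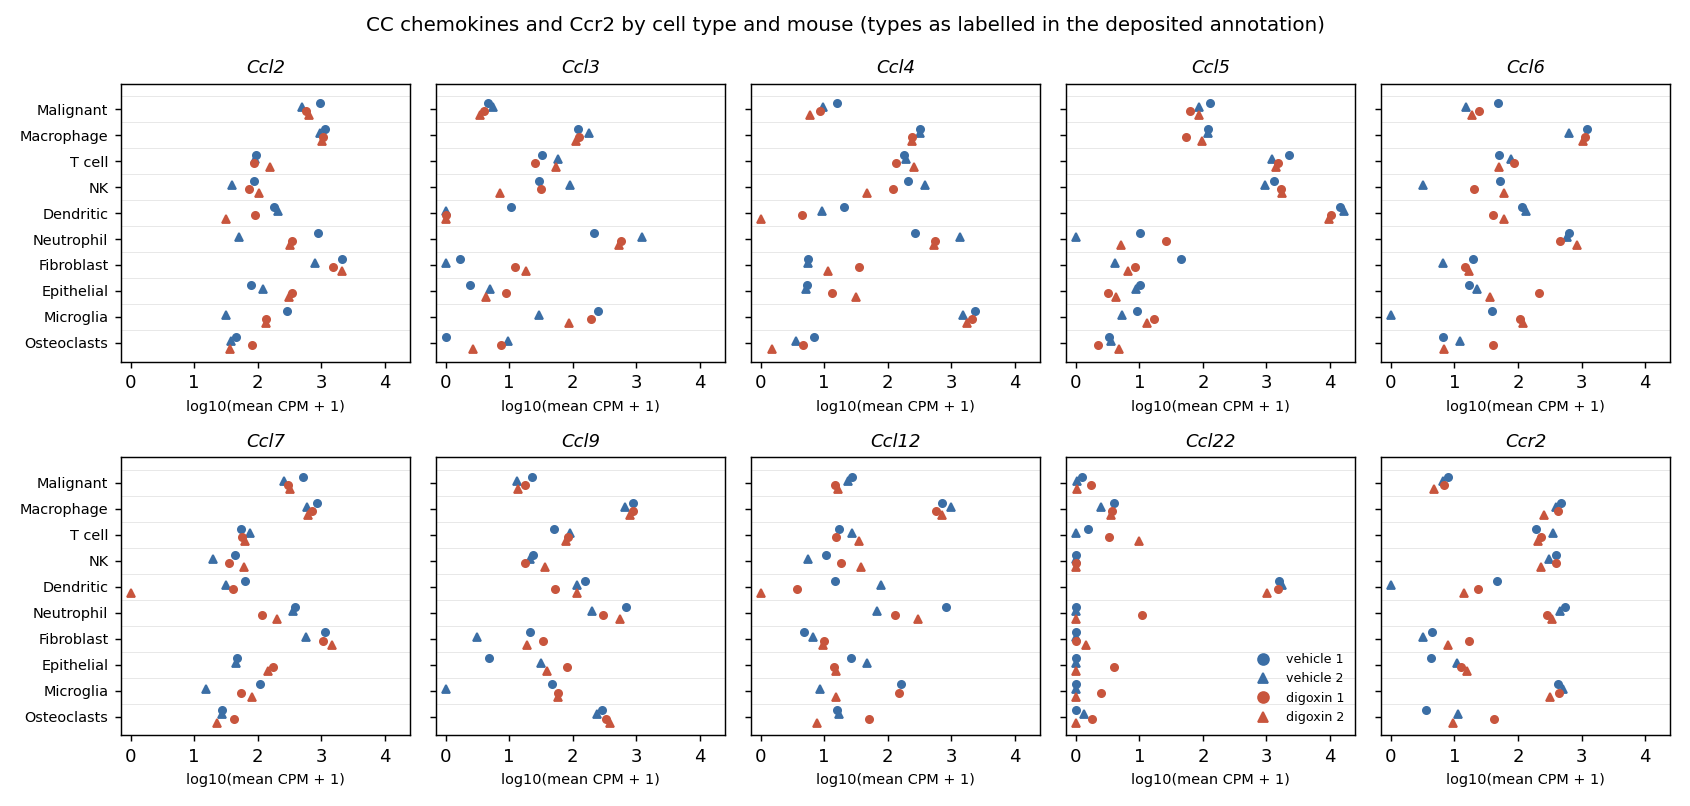
Level of each member in 10 cell types, as log10(mean CPM + 1) on the horizontal axis, with 1 point per mouse (vehicle blue, digoxin red; circles replicate 1, triangles replicate 2). Ccl2 and Ccl7 lie to the right in malignant cells, macrophages and fibroblasts, while Ccl6, Ccl9 and Ccl12 lie to the right in macrophages and neutrophils; Dendritic and Neutrophil hold under 20 cells in at least 1 mouse.

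Ccl3 and Ccl4, chemokines of activated macrophages and lymphocytes, had a Pearson r of 0.88 over the same 32 values. Ccl4 was highest in the type named Microglia, at 2366 and 1504 with vehicle and 2110 and 1786 with digoxin, above every value of the next type. In macrophages it was 318 and 324 with vehicle and 236 and 242 with digoxin. T cells held 177, 190, 134 and 261 and NK cells 205, 390, 120 and 45.7, which overlapped macrophages or each other. Ccl3 was at 28.6 to 247 in the type named Microglia and at 119, 176, 124 and 111 in macrophages, and these 2 types overlapped. Neutrophils, of which there were 5 to 34 per mouse, held Ccl3 at 216, 1242, 579 and 529 and Ccl4 at 264, 1371, 552 and 523, with vehicle replicate 2 at the top on 5 cells. Malignant cells held Ccl3 at 2.48 to 4.59 and Ccl4 at 5.07 to 15.

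Ccl4 in macrophages was spread over a part of the cells. The 10% of macrophages with the most Ccl4 UMIs held 69.1% to 74.0% of them, and held 11% to 11.5% of all UMIs of those macrophages. For Ccl9 in macrophages the same share was 30.8% to 33.5%, and for Ccl5 95.2% to 99.2%. Across macrophages, rho of Ccl3 with Ccl4 was 0.41 to 0.49.

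Ccl5, an attractant of T cells, NK cells and monocytes, had its highest levels in lymphocytes and dendritic cells. T cells held 2237 and 1225 with vehicle and 1499 and 1420 with digoxin, and NK cells 1330, 945, 1681 and 1748, so that both types overlapped. Among T cell sub-clusters the CD8 cells held 5362, 1793, 4312 and 3489 on 8 to 30 cells per mouse, and the Treg cells 119, 860, 335 and 877 on 35 to 65 cells. Dendritic cells, 10 to 21 per mouse, held 14310, 16664, 10185 and 9756, and Ccl5 UMIs were found in 77.8% to 100% of them. Dendritic cells were under 20 in at least 1 mouse and T cell sub-clusters were not among the populations compared, so no difference between treatments was tested in either. The dendritic cells carried Ccr7, the receptor for migration to lymph nodes, at 2436 to 3627 and Ccl22 at 1553, 1738, 1510 and 1008.

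Most Ccl5 UMIs in the tumors came from malignant cells, whose level was far below that of lymphocytes. Malignant cells held 66.8% to 74.5% of all Ccl5 UMIs of a mouse, with a mean CPM of 130 and 85.2 with vehicle and 62.3 and 87.2 with digoxin. Malignant cells held 81.1% to 87.0% of all UMIs of any gene, so these shares lie below the share of depth. They held 74.6% to 84.6% of Ccl2 UMIs and 67.7% to 77.5% of Ccl7 UMIs. Within the non-malignant cells, dendritic cells held 12.5% to 42.9% of Ccl5 UMIs with 0.220% to 0.513% of all non-malignant UMIs, and macrophages held 29.8% to 50.6%. The malignant Ccl5 was uneven. The 10% of malignant cells with the most Ccl5 UMIs held 95.2% to 96.9% of them, and the largest count in 1 cell was 1554.

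Ccl22 UMIs came mainly from few cells of the tumor. Dendritic cells held 45.1% to 88.9% of the non-malignant Ccl22 UMIs, and M1 macrophages 9.35% to 41.0%. In macrophages as a whole its mean CPM was 3.02, 1.54, 2.68 and 2.59, and in malignant cells 0.0454 to 0.742. Its pattern over types was matched less closely than that of the other members, with Ms4a8a the nearest gene at r 0.76.

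Ccl6 and Ccl9, neighbours on the minus strand, were macrophage genes here. Ccl6 had a mean CPM of 1223 and 630 with vehicle and 1132 and 1054 with digoxin in macrophages, against 2.23 to 213 in every mouse of the Epithelial, T cell, NK and Fibroblast types. Ccl9 was at 872, 651, 893 and 798 in macrophages and second in cells named Osteoclasts, at 288, 241, 331 and 380, which lay apart from both the macrophages above and the T cells below (49.2 to 90.4). Neutrophils held Ccl6 at 466 to 835 and Ccl9 at 196 to 687. The genes most like Ccl9 were Itgam (r 0.955), Tbxas1 (r 0.95) and Igsf6 (r 0.94), and the most like Ccl6 was C5ar1 (r 0.94), a complement receptor of myeloid cells. Across macrophages rho of Ccl6 with Ccl9 was 0.48 to 0.63.

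Comparison of malignant cells with macrophages of the same mouse split the members into 2 sets. Ccl2 in malignant cells was at 52.4% to 82.8% of the macrophage level, Ccl7 at 42.6% to 58.4% and Ccl5 at 70.4% to 117%. Ccl3, Ccl4, Ccl6, Ccl9, Ccl12 and Ccr2 lay between 1.39% and 4.70%, with Ccl4 the highest of them. The 8 macrophage markers measured the same way lay between 1.67% and 6.73%, with a median of 2.20%. Without cells marked as doublets, Ccl2, Ccl7 and Ccl5 stayed at 51.4% to 82.4%, 41.4% to 57.7% and 69.0% to 113%, while the markers lay at 0.384% to 5.30%. Ccl12 and Ccr2 then lay at 0.573% to 1.38% and 0.303% to 0.524%. Ccl22, with 15 to 119 UMIs per mouse in malignant cells, ranged from 2.25% to 27.7%.

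**Figure D2:**
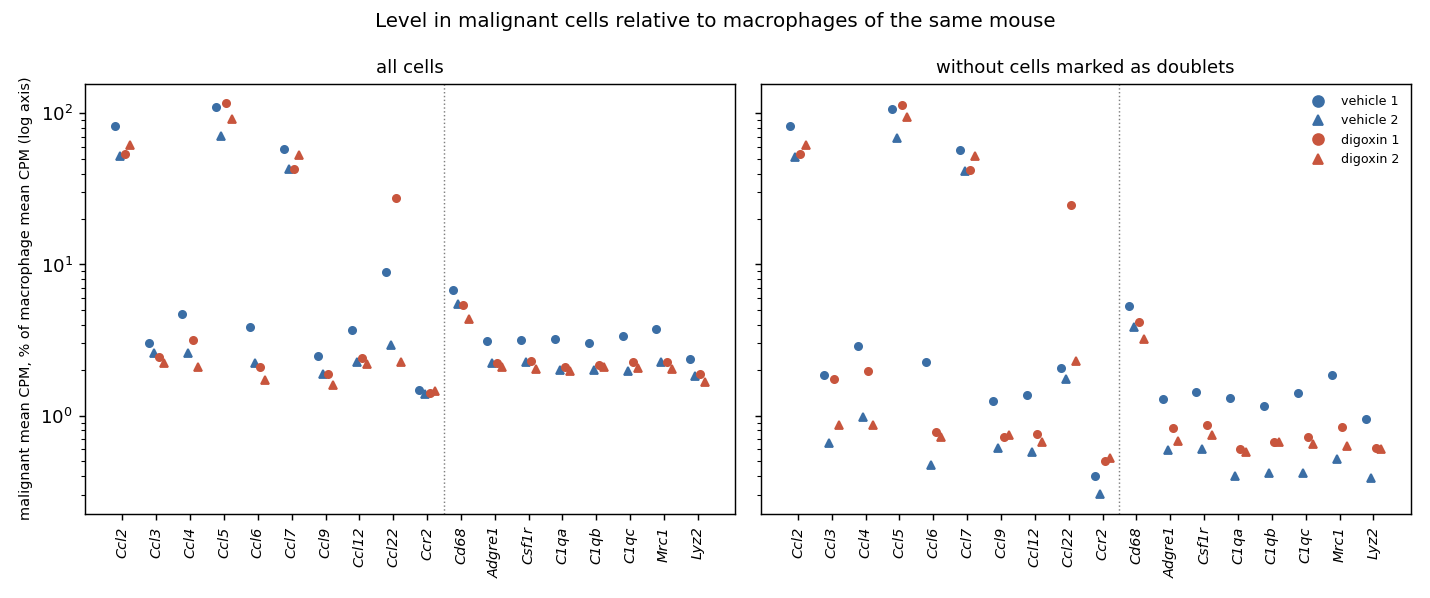
Mean CPM in malignant cells as a percent of that in macrophages of the same mouse (log axis), for the members and, right of the dotted line, 8 macrophage markers, with all cells and without cells marked as doublets. Ccl2, Ccl5 and Ccl7 lie above 40% in every mouse, and the macrophage markers below 7%.

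The macrophage sub-clusters, named M1 and M2 in the annotation, differed in which ligands they carried; the sub-clusters come from clustering these cells, so the levels are a description. Ccl5 was at 229, 376, 91.2 and 206 in M1 against 30.5, 14.9, 18.1 and 11.4 in M2. Ccl22 was at 4.79 to 6.22 in M1 and 0.172 to 0.257 in M2. Ccr2 was at 625, 659, 551 and 359 in M1 against 352, 287, 302 and 177 in M2, so that every M1 value lay above every M2 value. Ccl12 went the other way, with 561, 535, 286 and 471 in M1 and 954, 1243, 869 and 980 in M2, as did Ccl7, with 317 to 588 in M1 and 774 to 1304 in M2. The highly proliferative M2 cells held Ccl6 at 297 to 552, below all M1 and M2 values, and Ccl9 at 454 to 584, also below them.

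**Figure D3:**
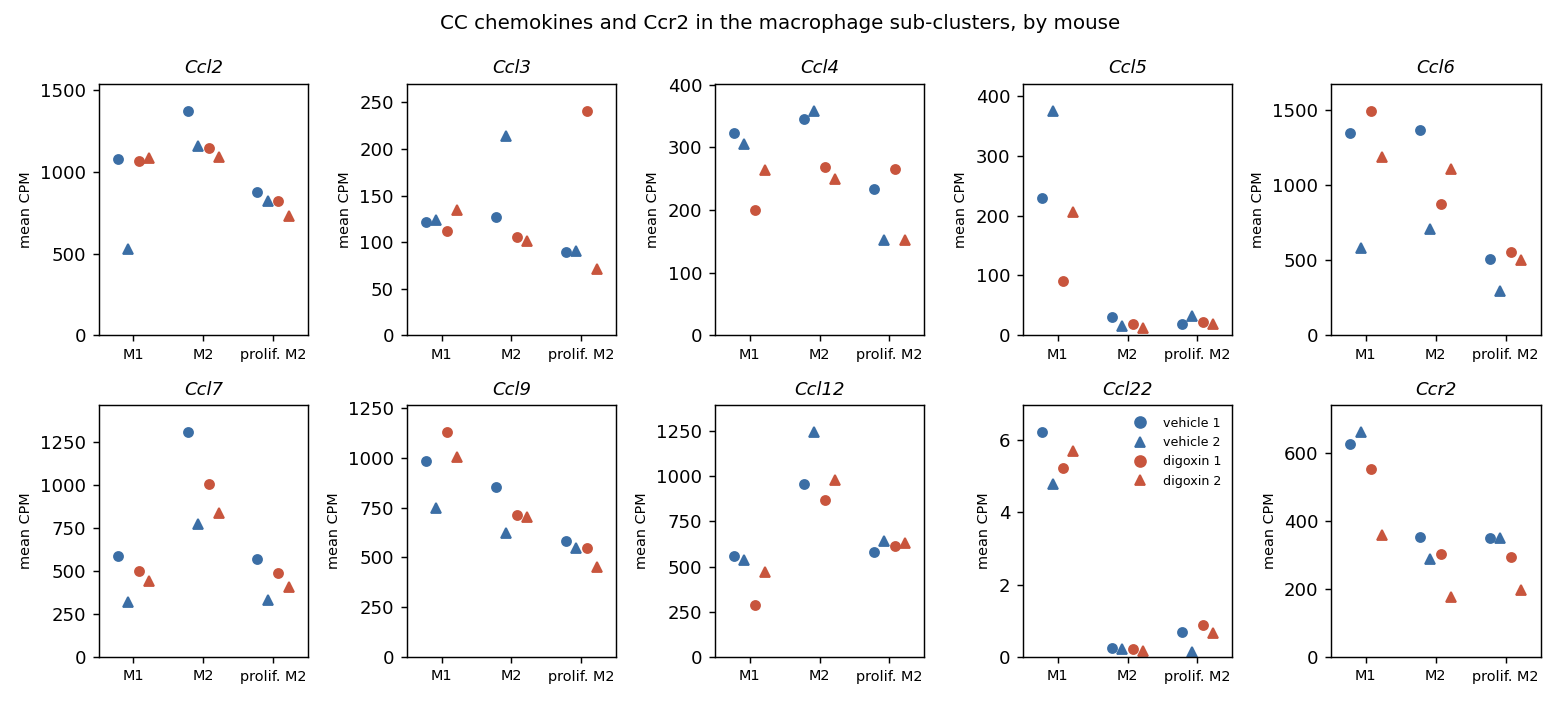
Mean CPM of each member in M1, M2 and the highly proliferative M2 cells of the macrophages, with 1 point per mouse and a separate linear axis from 0 for each gene. Ccl5 and Ccl22 stand higher in M1 and Ccl7 and Ccl12 higher in M2 in all 4 mice.

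To ask whether digoxin changed the members, the 4 mice were compared in each of 12 populations with limma on log2(mean CPM + 1), with Benjamini-Hochberg adjustment over all genes tested and a threshold of 0.05. Members were called only in the Epithelial type, where Ccl2 and Ccl7 were called with 0.467% of 10272 genes. NK cells had 0.0765% of genes called, cells named Osteoclasts 0.0128% and the other 9 populations 0%, with 0 members in each. At an unadjusted limma p under 0.05, 7 of 8 members tested were counted in the Epithelial type, against 5.77% of all genes there. Where none was called, the counts ran from 0 of 9 members tested in T cells to 4 of 9 in NK cells and 4 of 10 in M1. The shares of all genes were 4.28% in T cells, 6.28% in NK cells and 7.73% in M1. Over the populations where none was called, these shares ran from 2.28% in M2 to 7.73% in M1. On UMI sums, edgeR called 1 member, Ccl12 in NK cells, with 0.186% of all genes there, and no gene in the other 11 populations. DESeq2 called 1 member, Ccl12 in malignant cells, with 0.257% of all genes there, and 0 members in the other populations, where 0% (T cell) to 0.296% (M1) of all genes were called. Leaving out vehicle replicate 1, so that vehicle replicate 2 stood alone and was assumed to vary like the digoxin mice, called 1 to 6 members in 10 of the 12 populations, where 0.407% to 4.46% of all genes were called under the same setting. A two-sided exact permutation test of 2 against 2 mice cannot give a p under 0.333.

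In macrophages both digoxin mice were lower than both vehicle mice for 3 of 10 members and higher for 0, where 17.3% of all 13734 genes tested were lower and 13.6% higher in this way. The 3 were Ccl4, Ccl5 and Ccl12. Ccl4 stood at 318 and 324 with vehicle and at 236 and 242 with digoxin, differing by -0.42 on the log2 scale (SE 0.10) with an adjusted p of 1.00 in limma. Ccl5 stood at 119 and 121 against 53.4 and 95.3, differing by -0.74 on the log2 scale (SE 0.25) with an adjusted p of 1.00 in limma, and by -0.33 without digoxin replicate 1 and -1.15 without digoxin replicate 2. For Ccl12 the lowest vehicle mouse, at 718, was close to the highest digoxin mouse, at 714, and the log2 difference was -0.40 (SE 0.19), which became -0.63 without vehicle replicate 1, -0.18 without vehicle replicate 2 and -0.23 without digoxin replicate 1. Ccl2 differed by 0.01 (SE 0.13), Ccl7 by -0.14 (SE 0.19), Ccl9 by 0.16 (SE 0.16) and Ccr2 by -0.41 (SE 0.23), with groups that overlapped. Ccr2 was at -0.76 without digoxin replicate 1 and at -0.06 without digoxin replicate 2, its lowest mouse. The Ccl6 groups overlapped too, at 0.32 (SE 0.29), but the difference was 0.79 with an adjusted p of 0.0340 without vehicle replicate 1, where 1.00% of all genes were called, and -0.16 without vehicle replicate 2. The median over the 10 members was -0.22, and over all genes tested -0.0053.

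The M1 cells showed 4 members lower in both digoxin mice and 1 higher, where 24.0% of 12182 genes were lower and 15.3% higher. Ccl4 (log2 difference -0.45, SE 0.14), Ccl5 (-1.09, SE 0.38), Ccl12 (-0.58, SE 0.22) and Ccr2 (-0.53, SE 0.19) were the lower members and Ccl9 (0.31, SE 0.15) the higher one, with limma adjusted p of 0.535 to 0.691. Single mice moved these values: Ccl4 was at -0.25 without digoxin replicate 1, Ccr2 at -0.84 without digoxin replicate 1 and -0.22 without digoxin replicate 2, and Ccl9 at 0.51 without vehicle replicate 1 and 0.12 without vehicle replicate 2. Without digoxin replicate 2, Ccl5 and Ccl12 were called in M1, at -1.68 and -0.93, with 0.279% of all genes, while without digoxin replicate 1 they were not called, at -0.51 and -0.22. Without vehicle replicate 1 Ccl2 and Ccl6 were called there, with 1.72%. In M2 cells 3 of 9 members tested, Ccl2, Ccl3 and Ccl4, were lower and 0 higher, where 11.7% of 12545 genes were lower and 15.0% higher. Ccl3 stood at 127 and 214 with vehicle and at 105 and 101 with digoxin in M2, differing by -0.67 on the log2 scale (SE 0.23) with an adjusted p of 1.00 in limma. Without vehicle replicate 1 it was called at -1.04, with 0.407% of all genes, and without vehicle replicate 2 it was not called, at -0.29. In the highly proliferative M2 cells 2 of 9 members tested, Ccl9 and Ccr2, were lower in both digoxin mice and 0 higher, where 12.6% of 11459 genes were lower and 17.4% higher. Ccr2 stood there at 348 and 348 with vehicle and at 295 and 197 with digoxin (-0.53, SE 0.17), and was at -0.82 without digoxin replicate 1 and -0.24 without digoxin replicate 2. Ccl9 stood at 584 and 546 against 545 and 454 (-0.18, SE 0.11), with the nearest mice of the groups almost level, and was at -0.31 without digoxin replicate 1 and -0.05 without digoxin replicate 2. The limma adjusted p was 1.00 for both, and the Ccl9 difference from M1, where it was higher with digoxin, was not tested. The difference in effect between M1 and M2 was tested on the per-mouse differences and 0 of 11932 genes were called (723 at an unadjusted p under 0.05), with 0.69 (SE 0.27) for Ccl2, 0.67 (SE 0.27) for Ccl3 and 0.35 (SE 0.14) for Ccl9, limma adjusted p 0.804 for each.

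In malignant cells Ccl3, Ccl4 and Ccl12 were lower in both digoxin mice and 0 of 10 members were higher, where 16.5% of 17138 genes were lower and 12.8% higher. Ccl12 stood at 26.3 and 22.3 with vehicle and 13.6 and 15.7 with digoxin, differing by -0.69 on the log2 scale (SE 0.12) with an adjusted p of 1.00 in limma, and DESeq2 called it (-0.70, adjusted p 0.0121). Ccl4 stood at 15 and 8.44 against 7.48 and 5.07 (-0.77, SE 0.29), a difference that was -0.40 without vehicle replicate 1 and -1.15 without vehicle replicate 2. Ccl3 stood at 3.59 and 4.59 against 3.03 and 2.48 (-0.44, SE 0.15). All 3 are among the 6 members that lay near the level of the macrophage markers in malignant cells. The other 3 of those 6, Ccl6 (-0.30), Ccl9 (-0.14) and Ccr2 (-0.34), had groups that overlapped, and Ccr2 was at -0.20 without vehicle replicate 1, -0.62 without digoxin replicate 1 and -0.07 without digoxin replicate 2. Of the 8 macrophage markers, 7 were also lower in both digoxin mice, with 0 higher. Their summed mean CPM was 609 and 619 with vehicle and 461 and 476 with digoxin, none of the 8 was at 0, and the share of malignant cells marked as doublets was 8.36% and 7.47% against 5.56% and 5.51%. Without those cells the differences were -0.63 for Ccl12, -0.63 for Ccl4 and -0.09 for Ccl3. What the macrophage RNA adds to these differences was otherwise not tested.

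For the members that malignant cells carried at a high level, the groups overlapped. Ccl2 differed by -0.18 (SE 0.30), Ccl7 by -0.21 (SE 0.305) and Ccl5 by -0.51 (SE 0.24), with vehicle replicate 1 the highest mouse for each. Ccl5 was at -0.21 without vehicle replicate 1, -0.27 without digoxin replicate 1 and -0.81 without vehicle replicate 2. Without vehicle replicate 1, Ccl2 and Ccl7 differed by 0.29 in the other direction. The difference in digoxin effect between macrophages and malignant cells was tested too, and 0 of 13532 genes were called (625 at an unadjusted p under 0.05). For Ccl2 it was 0.19 (SE 0.22), and the largest among the members was 0.62 (SE 0.28) for Ccl6.

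**Figure D4:**
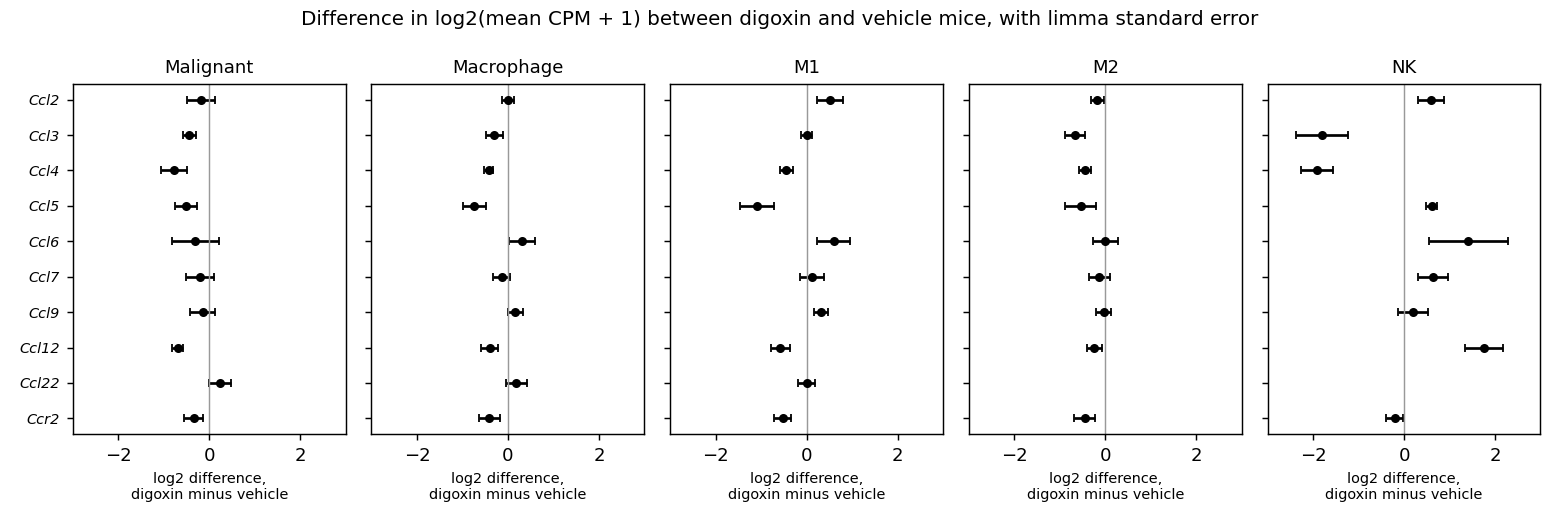
Difference in log2(mean CPM + 1), digoxin minus vehicle, for each member in 5 populations, with points at the limma estimate and bars of 1 standard error from 2 mice a group. Ccl4 lies left of 0 in the 5 populations shown, of which M1 and M2 are parts of Macrophage. Among populations not shown, Ccl4 differed by 1.95 in Epithelial, 1.85 in Fibroblast, 0.03 in T cell and 0.04 in Microglia. No member shown passed an adjusted p of 0.05, and members without a point were not tested in that population.

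NK cells, of which there were 69 to 150 per mouse, had Ccl4 lower and Ccl5 and Ccl12 higher in both digoxin mice, where 16.9% of 9147 genes were lower and 19.1% higher. Ccl4 stood at 205 and 390 with vehicle and 120 and 45.7 with digoxin, differing by -1.91 on the log2 scale (SE 0.34) with an adjusted p of 0.0741 in limma. Ccl5 stood at 1330 and 945 against 1681 and 1748, differing by 0.61 on the log2 scale (SE 0.12) with an adjusted p of 0.132 in limma. Ccl4 UMIs sat in few cells. In each mouse 10% of the NK cells held 90.2% to 97.1% of them, and the share of NK cells with any Ccl4 UMI was 17.4% and 21.7% with vehicle and 20.7% and 14.9% with digoxin. The largest Ccl4 count in 1 NK cell was 98 and 165 UMIs with vehicle and 112 and 13 with digoxin, so single cells weigh on these means. Ccl12 rested on 6 to 105 UMIs per mouse, at 9.64 and 4.62 against 17.3 and 36.7, and edgeR called it (log2 difference 2.03, adjusted p 0.0385). Macrophage markers summed to 591 and 606 with vehicle and 671 and 1070 with digoxin in NK cells, with 4 of 8 higher, 0 lower and none at 0. Without the NK cells that carried at least 3 of the 8 markers (22 and 14 with vehicle, 29 and 49 with digoxin), Ccl12 stood at 8.36 and 4.57 against 2.49 and 20.8 on 4 to 13 UMIs per mouse, so the groups overlapped, and it was below the filter on low counts. Ccl4 and Ccl5 still lay apart without those cells, at -2.01 (SE 0.40) and 0.62 (SE 0.17), with limma adjusted p of 0.533 and 0.866, where 2 of 8023 genes were called. Ccl3 differed by -1.80 in all NK cells, with groups that overlapped. Without those cells it was lower in both digoxin mice, at -1.64 (SE 0.58, limma adjusted p 0.866), on 4 to 44 UMIs per mouse. With single mice left out, Ccl4 was called at -2.37 without vehicle replicate 1, at -2.60 without digoxin replicate 1 and at -1.22 without digoxin replicate 2, and Ccl5 at 0.86, 0.64 and 0.58. Ccl12 was called at 2.23 without vehicle replicate 1 and at 2.29 without digoxin replicate 1, and not called at 1.24 without digoxin replicate 2. Without vehicle replicate 2 none of the 3 was called, with Ccl4 at -1.45, Ccl5 at 0.37 and Ccl12 at 1.31, where 0.131% of all genes were called. Of all genes in NK cells, 1.17% were called without vehicle replicate 1, 0.568% without digoxin replicate 1 and 0.262% without digoxin replicate 2. The difference in effect between NK cells and macrophages, with 0 of 9059 genes called (430 at an unadjusted p under 0.05), was 1.35 (SE 0.357) for Ccl5 and 2.17 (SE 0.724) for Ccl12, limma adjusted p 0.962 for each.

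The T cells gave 0 of 9 members with groups apart, where 19.0% of 8930 genes were lower and 14.3% higher. Ccl5 differed by -0.18 (SE 0.22), Ccl4 by 0.03 (SE 0.265) and Ccr2 by -0.27 (SE 0.25), and limma adjusted p was 0.979 to 0.997 over the 9 members tested. Without vehicle replicate 1 Ccr2 was called in T cells, with 2.22% of all genes, and without vehicle replicate 2 Ccl5, with 0.929%. In fibroblasts, with 31 to 78 cells per mouse, Ccl2 differed by 0.46 (SE 0.42) and Ccl7 by 0.65 (SE 0.32), with vehicle replicate 2 the lowest mouse for both; without that mouse they differed by -0.26 and 0.15. Of the 7 members tested in fibroblasts, Ccl3, Ccl4 and Ccl12 were higher in both digoxin mice and 0 lower, where 10.1% of 9292 genes were higher and 19.4% lower, and limma called none (adjusted p 0.999 for each). These 3 rested on few UMIs: Ccl3 on 2 and 0 with vehicle and 19 and 17 with digoxin, Ccl4 on 16 and 2 against 79 and 11, and Ccl12 on 13 and 3 against 19 and 11. The 8 macrophage markers summed to 444 and 138 with vehicle and 682 and 614 with digoxin in fibroblasts, with 2 of 8 higher, 0 lower and none at 0. Without the fibroblasts that carried at least 3 of them (28 and 12 with vehicle, 14 and 27 with digoxin, which left 19 to 50 cells per mouse), Ccl3 had 1 and 0 UMIs against 0 and 0, Ccl4 5 and 2 against 2 and 0, and Ccl12 2 and 1 against 3 and 3. By mean CPM Ccl3 then overlapped, Ccl4 was lower and Ccl12 higher in both digoxin mice, and none of the 3 passed the filter on low counts. Ccl2 without those cells differed by 1.70 (SE 0.79, limma adjusted p 0.999), with vehicle replicate 2 at 166 on 19 cells and the other mice at 1565 to 1964, and no gene was called. Without vehicle replicate 1, Ccl2, Ccl3, Ccl7 and Ccl9 were called in fibroblasts, with 4.46% of all genes. In the type named Microglia, with 31 to 58 cells per mouse, Ccl4 differed by 0.04 (SE 0.17). Of the 8 members tested there, Ccl6 and Ccl9 were higher in both digoxin mice and 0 lower, where 16.7% of 5818 genes were higher and 16.2% lower. Ccl6 stood at 38.7 and 0 with vehicle and 105 and 120.5 with digoxin, and Ccl9 at 46.9 and 0 against 58.5 and 58.3, with vehicle replicate 2 at 0 for both. The limma adjusted p was 0.614 for Ccl6 and 0.976 for Ccl9. The macrophage markers summed to 1221 and 507 against 1091 and 1583 in these cells, with 3 of 8 higher, 0 lower and none at 0, and their part was not tested. In the type named Microglia 6 members were called without vehicle replicate 1, with 87 of the 5818 genes, 2 without vehicle replicate 2, with 0.292% of all genes, and 1 without digoxin replicate 2, with 0.223%.

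The called difference, in the type named Epithelial, was no longer called without 12 cells that carried mast cell genes. That removal was chosen after the data were seen. Ccl2 stood at 77.9 and 122 with vehicle and 348 and 308 with digoxin, differing by 1.74 on the log2 scale (SE 0.20) with an adjusted p of 0.00508 in limma. Ccl7 stood at 46.9 and 45.4 against 175 and 143, differing by 1.76 on the log2 scale (SE 0.17) with an adjusted p of 0.00295 in limma. The groups did not overlap for either gene. Of the 8 members tested, 6 were higher in both digoxin mice (Ccl4, Ccl6, Ccl9 and Ccr2 beside Ccl2 and Ccl7) and 2 lower (Ccl5 and Ccl12), where 17.8% of genes were higher and 16.3% lower. The 6 that were not called had limma adjusted p of 0.176 to 0.883. Cells with at least 3 of the 4 mast cell markers Cpa3, Mcpt4, Tpsb2 and Kit (3 proteases and the stem cell factor receptor) numbered 0 of 80 and 1 of 98 with vehicle and 5 of 83 and 6 of 86 with digoxin. All 12 had Ccl2 UMIs, at 661 to 11413 CPM with a median of 3020, against a median of 37.8 in the other cells of the type. Of the 12, 9 had Ccl7 UMIs, 4 Ccl4, 4 Ccl9, 3 Ccl6, 3 Ccl12, 1 Ccl3, 1 Ccr2, 0 Ccl5 and 0 Ccl22. Of the endothelial markers, Pecam1 was found in 3 of the 12, Kdr in 2, Cdh5 in 1 and Cldn5 in 0, and 1 of the 12 cells held at least 3 of these 4.

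Without these 12 cells Ccl2 stood at 77.9 and 89.5 with vehicle and 76.6 and 133 with digoxin, and Ccl7 at 46.9 and 30.7 against 38.6 and 59.3, so the groups overlapped for both. The log2 differences were then 0.27 (SE 0.235) and 0.33 (SE 0.275), limma adjusted p 0.997 for each, and 3 genes in all were called in the type where 48 had been. Summing UMIs over cells, which gives the shallow mast-marker cells (4036 to 11561 UMIs) less weight, gave 0.49 and 0.92, and edgeR gave 0.47 (adjusted p 0.780) and 0.78 (adjusted p 0.998). Without digoxin replicate 1 the limma adjusted p of Ccl2 was 0.0619, and 5 members were called without vehicle replicate 1 (with 3.35% of all genes) and also without vehicle replicate 2 (with 2.34%). The type also held 23, 25, 36 and 32 cells with at least 3 of 8 macrophage markers. Over all cells of the type, 5 of the 8 markers were higher in both digoxin mice and 0 lower, with none at 0 over the 4 mice together. Without the macrophage-marker cells the Ccl2 and Ccl7 differences were larger, 2.94 and 2.77. The groups of Ccl5, Ccl6, Ccl12 and Ccr2 then overlapped by mean CPM. Ccl4 and Ccl9 were still higher in both digoxin mice, on 2 to 10 UMIs per mouse. None of these other members passed the filter on low counts. The summed level of the mast cell markers was 59.4 and 183 with vehicle and 3199 and 3900 with digoxin, with 3 of 4 higher. In vehicle replicate 1 Cpa3, Mcpt4 and Tpsb2 were at 0, and Kit gave the whole 59.4.

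**Figure D5:**
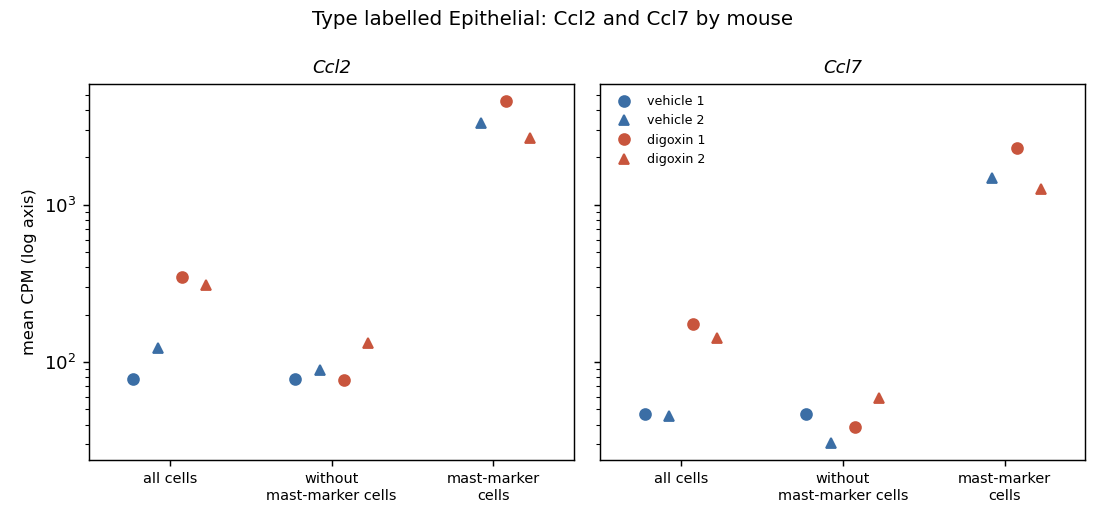
Mean CPM (log axis) of Ccl2 and Ccl7 by mouse in the type named Epithelial, for all cells, without the cells that carry mast cell markers, and in those cells alone. Digoxin mice stand above vehicle mice with all cells (308 and 348 against 77.9 and 122 for Ccl2) and overlap them without the mast-marker cells, of which vehicle replicate 1 had 0.

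Of the other genes of the pathway, 11 ligands, 13 receptors and 10 genes of NF-kB signalling and monocyte supply were read alongside. In macrophages 6, 7 and 10 of these were tested, and limma called 0, with 0, 2 and 1 at an unadjusted p under 0.05, where 4.04% of all genes were under it. Ccl8, another monocyte chemoattractant protein by name, stood in macrophages at 1605 and 983 with vehicle and 1450 and 1193 with digoxin. The receptor Ccr1 was carried in the same cells, at 256, 258, 271 and 217. Ccrl2, listed here among the receptors, stood at 348, 415, 319 and 299 in them. Ccrl2 was lower in both digoxin mice and Ccr1 overlapped. Ccrl2 (-0.30, SE 0.12) and Ccr3, named after its values were seen, were the 2 receptors at an unadjusted p under 0.05 in macrophages. Ccr3, an eotaxin receptor, stood at 0.492 and 0.342 mean CPM with vehicle and 1.33 and 1.29 with digoxin on 20 to 84 UMIs per mouse, differing by 0.71 on the log2 scale (SE 0.13) with a limma adjusted p of 1.00. It was also higher in both digoxin mice in M2 (0.92, SE 0.21) and in highly proliferative M2 (1.26, SE 0.28), which are parts of the same macrophages, with limma adjusted p of 1.00 in each. Tumors were dissociated with enzymes at warm temperature, and of 15 genes of the dissociation response limma called 0 in macrophages, with 2 higher and 4 lower in both digoxin mice (13.6% and 17.3% of all genes), and 0 in malignant cells, with 2 higher and 5 lower (12.8% and 16.5% of all genes). Il1b, a cytokine that induces Ccl2, was higher in both digoxin mice in macrophages (1588 and 1280 against 1747 and 1715), as were Nfkbia, Nfkb1 and Tnf, 4 of 10 in their list, named after their values were seen, where 13.6% of all genes were higher. The 1 pathway gene called in any population was Il1b in NK cells, at 7.03 and 10.3 with vehicle and 101 and 55.2 with digoxin (log2 difference 2.99, limma adjusted p 0.000544). Macrophages held Il1b far above this, at 1280 to 1747. NK cells with at least 3 of the 8 macrophage markers numbered 22 and 14 with vehicle and 29 and 49 with digoxin. NK cells were also compared without those cells, but the Il1b value there is not reported here. What macrophage RNA adds to the Il1b difference in NK cells was not tested beyond that.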

How the data were processed

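Single-cell RNA was measured in tumors of 4 mice, 2 per group. Per the submitters' processing notes, Cell Ranger 3.0.2, Seurat 3.0.2 and the mm10 build were used; the cell filters and the rule for calling cells malignant are not given in the sources used here. The deposited expression tables hold the natural log of 1 plus UMIs per 10000 UMIs of the cell, and the deposited annotation gives the UMI count of each cell, from which whole UMIs were recovered for 100% of values above 0 (tolerance 0.01). Cell names with the vehicle number 3 were read as vehicle replicate 2. All columns of cells were assigned to a mouse (0 were of no sample).

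Because the authors deposited log values, mean CPM per mouse and population was tested as log2(mean CPM + 1) with limma 3.58.1 in R 4.3.3, after edgeR's low-count filter, in malignant cells, all non-malignant cells, and the annotated types and macrophage sub-clusters with at least 20 cells in every mouse; T cell sub-clusters were not tested. edgeR 4.0.16 and DESeq2 1.42.0 ran on recovered UMI sums as alternatives, beside other pseudocounts, no filter, summed CPM, doublet and mitochondrial filters, a replicate block and each mouse left out. Scrublet (scanpy 1.11.5) marked 1377 of 31611 cells (4.36%) as doublets, which were kept. Differences between cell types were not tested, since the types come from clustering. Expected detection shares at 4000 UMIs leave out shallower cells. Promoters are RefSeq's. Tests were checked on simulated data. Members and gene lists were chosen with earlier results of these data known. Named genes were the members, the 3 genes most like each member, and pathway genes past the threshold or with the highest macrophage levels, of which 1 is not reported here.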

Additional observations from a re-analysis of the deposited data

Results flagged for a closer look

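For 3 members the 2 digoxin mice were both above the vehicle mice in one cell type and both below them in another, among types with at least 50 cells in every mouse. In malignant cells, macrophages, NK cells and the Epithelial type, 16.3% to 17.3% of all genes tested were lower in both digoxin mice. In the same types 12.8% to 19.1% were higher. The share of all genes that lay apart in opposite directions was not counted, and the pairs below were picked for doing so. For Ccl4 the log2 difference (digoxin minus vehicle) in the type named Epithelial exceeded that in malignant cells by 2.72, that in macrophages by 2.37 and that in NK cells by 3.86. For Ccl5 the difference in NK cells exceeded that in the Epithelial type by 1.96 and that in macrophages by 1.35. For Ccl12 the difference in NK cells exceeded that in malignant cells by 2.46, that in the Epithelial type by 3.03 and that in macrophages by 2.17. These differences were not tested, except those of NK cells against macrophages, which limma did not call (adjusted p 0.962). Without cells that carried at least 3 of the 8 macrophage markers, the Ccl12 groups in NK cells overlapped, on 4 to 13 UMIs per mouse. The Ccl5 and Ccl12 groups in the Epithelial type also overlapped then, on 0 to 9 UMIs per mouse. Ccl4 in the Epithelial type was still higher in both digoxin mice, on 2 to 10 UMIs per mouse.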

How the results depend on the processing

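The counts of members called moved as follows. DESeq2 called 1 in malignant cells and edgeR 1 in NK cells, where a pseudocount of 10 also gave 1. In the Epithelial type, edgeR, DESeq2, summed CPM and removal of cells with mast cell markers each gave 0, and no filter gave 1. With each mouse left out, the counts ranged from 0 to 1 in all non-malignant cells, macrophages, T cells, M2 and highly proliferative M2, 0 to 2 in M1, 0 to 4 in fibroblasts, 0 to 6 in the Microglia type and in NK cells, and 1 to 5 in the Epithelial type. The replicate block gave 2 in NK cells (Ccl4 and Ccl5) and changed no other count of members; same-numbered mice did not deviate together (correlations -0.363 to 0.061), and the labels give only a number. Crossed replicate numbers gave 0 in malignant cells and 2 in the Microglia type. The shares of all genes called with no filter, a pseudocount of 10, the replicate block and crossed numbers are not given here. Counts of members under these settings are therefore not read as a result about the members. The direction turned for Ccr2 in malignant cells without doublets (0.0937) and for Ccl2 in macrophages with edgeR (-0.0194), DESeq2 (-0.0138) and summed CPM (-0.0090), for Ccl4 in T cells with edgeR (-0.257), DESeq2 (-0.254) and summed CPM (-0.269), for Ccl5 in T cells without macrophage-marker cells (0.0836), and for Ccl4 in the Microglia type with edgeR (-0.0410) and DESeq2 (-0.0354). With mice left out, the log2 difference in malignant cells ranged from -0.66 to 0.29 for Ccl2, -1.14 to 0.54 for Ccl6, -0.70 to 0.29 for Ccl7, -0.53 to 0.25 for Ccl9 and -0.12 to 0.60 for Ccl22, and in macrophages from -0.14 to 0.16 for Ccl2, -0.16 to 0.79 for Ccl6, -0.40 to 0.13 for Ccl7, -0.0458 to 0.375 for Ccl9 and -0.15 to 0.52 for Ccl22. It ranged from -0.26 to 1.18 for Ccl2 in fibroblasts, from -0.45 to 0.51 for Ccl4, -0.62 to 0.25 for Ccl5 and -0.71 to 0.18 for Ccr2 in T cells, and from -0.29 to 0.37 for Ccl4 in the Microglia type. Removal of mast-marker or macrophage-marker cells and crossed numbers were chosen after seeing the data. The cause of these changes was not tested. The smallest difference that these mice and cell numbers could show was not measured.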
